A study of Mus musculus with 6 samples.

Results

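The genes described here are 10 parts of the microRNA processing machinery, taken by symbol from a list made with earlier results of these data known: *Drosha*, *Dgcr8*, *Xpo5*, *Dicer1*, *Tarbp2*, *Ago1*, *Ago2*, *Ago3*, *Tnrc6a* and *Tnrc6b*. They were read from a table of 46078 listed genes, of which 30252 had a count and 14828 passed the filter on low counts. All 10 passed that filter. A total of 11 rows carry a member's symbol, because *Dgcr8* also has a row on an alternate sequence (ENSMUSG00000106687), which held 0 counts in every library and was not used.

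Total RNA was sequenced from C2C12 cells after 2 days of differentiation. C2C12 is a mouse myoblast cell line that stops dividing and forms multinucleate myotubes when serum is withdrawn. The KO group carries a CRISPR-Cas9 edit of *Hnrnpa2b1*, which encodes an RNA-binding protein, and the WT group does not. There were 3 libraries of each genotype (KO1 to KO3 and WT1 to WT3). The methods describe 3 clones of each genotype, isolated after puromycin selection of a transfected pool, but which clone gave which library is not stated in the sources used here, so the p-values measure the spread between these libraries.

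Most microRNAs start as hairpins within long primary transcripts. In the nucleus the Microprocessor, formed by the RNase DROSHA and its RNA-binding partner DGCR8, cuts the hairpin out, exportin-5 carries it to the cytoplasm, and DICER1 with the cofactor TARBP2 trims it to a short duplex. An Argonaute protein keeps a strand of the duplex as its guide and recruits TNRC6 proteins, also called GW182, which bring in the enzymes that shorten and decap the target mRNA. HNRNPA2B1 is reported to help the Microprocessor find its substrates, and the comparison asks whether RNA of the machinery itself differed between KO and WT.

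The libraries hold fragments of long RNA, so no level of a mature microRNA was measured. Reads on hairpin genes and on their host transcripts were counted, and 3 host loci carry the hairpins described at the end: *Mest* (*Mir335*), *H19* (*Mir675*) and *Gm28653* (*Mir206* and *Mir133b*, which are abundant in skeletal muscle). The mature sequences from those hairpins are shown so that the reader can see which target-pairing seeds the loci encode. They are RefSeq sequences on GRCm38.p6, written 5′ to 3′ with the seed (bases 2 to 8) in capitals. Both arms are given for the loci whose transcripts differed, and the 3p arm for the muscle pair.
mmu-miR-335-5p: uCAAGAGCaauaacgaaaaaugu
mmu-miR-335-3p: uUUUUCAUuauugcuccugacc
mmu-miR-675-5p: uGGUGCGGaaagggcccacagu
mmu-miR-675-3p: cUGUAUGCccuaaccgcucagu
mmu-miR-206-3p: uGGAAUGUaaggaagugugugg
mmu-miR-133b-3p: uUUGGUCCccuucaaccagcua
No seed is shared between these sequences. The miR-335 arms lie on the forward strand at chr6:30741314-30741336 and chr6:30741354-30741375, and the miR-675 arms on the reverse strand at chr7:142577112-142577133 (5p) and chr7:142577078-142577099 (3p). The miR-206-3p sequence lies at chr1:20679055-20679076 and miR-133b-3p at chr1:20682834-20682855, both on the forward strand.

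Each library held 33605258 to 40558740 counted reads. RNA of the edited gene did not separate the genotypes: *Hnrnpa2b1* stood at 159, 195 and 249 CPM (counts per library size, scaled with TMM factors) in KO1 to KO3 against 225, 229 and 252 in WT1 to WT3. Its log2 fold change was −0.23 (standard error 0.18, adjusted p = 0.381, edgeR), and it was −0.09 without KO1, −0.41 without KO3 and −0.10 with library totals alone. In TPM the gene stood at 29.5, 38.0 and 59.9 in KO and 56.6 to 58.0 in WT, with KO1 and KO2 below and KO3 above every WT library (difference −0.49 on the log2(TPM + 1) scale, adjusted p = 0.171, limma). RNA is no measure of the protein after such an edit, so KO and WT are used as the labels give them. For the protein, the paper reports that the clones were checked by immunofluorescence and Western blot. Its blot legend names cells treated with a scrambled guide as the comparison. All 12 muscle markers looked at passed the filter on low counts. Of them, *Tnnc2* was near the floor at 12 to 22 counts per library (0.275 to 0.636 CPM), although its TPM was 14.0 to 78.85. The summed level of the 12 was 8646 to 23290 CPM per KO library and 16360 to 21580 per WT library. KO2 (9658 CPM) and KO3 (8646 CPM) were the lowest. The summed level of 6 markers of cycling or unfused myoblasts was 202, 384 and 344 CPM in KO1 to KO3 and 205 to 265 in WT. Of these 6, 1 passed an adjusted p of 0.05 in edgeR as higher in KO and 1 as lower. *Mki67* (log2 fold change 0.825), *Top2a* (0.44), *Cdk1* (0.07) and *Ccnb1* (−0.05) did not pass. Of the 12 muscle markers, 1 passed as higher and 2 as lower. Single markers went both ways, each with KO and WT apart in every library: *Myod1* rose 1.98-fold (adjusted p = 0.0141, edgeR) and *Pax7* 2.86-fold (0.0223), while *Actn2* was 7.65-fold (0.00212), *Myl1* 5.24-fold (0.0297) and *Myf5* 2.84-fold lower (0.0303). Of 14 alternatives the call was lost in 2 for *Myod1*, 3 for *Pax7*, 4 for *Myl1* and 5 for *Myf5*, whose log2 fold change ranged from −2.11 to −0.58, and in none for *Actn2*. Of 8 markers of other lineages none passed the filter, and their sum was at most 2.55 CPM. That maximum was in KO1, where *Cdh1* held 79 counts (2.21 CPM) against 1 to 6 in the other libraries. In bulk RNA, a change in the share of differentiated cells and a change in RNA per cell cannot be told apart, and the part of these shifts in the values below was not tested.

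Across the machinery, differences between KO and WT were small. The fitted log2 fold change (KO over WT) was above 0 for 8 of 10 genes and below 0 for *Ago2* and *Ago3*, and its median was 0.30, beside 0.03 over all 14828 genes tested (52.3% of which were above 0). Only *Tnrc6a* passed an adjusted p of 0.05 in edgeR's quasi-likelihood test with Benjamini-Hochberg adjustment over all genes. That is 1 of 10 members, where 22.7% of all tested genes passed, 12.1% as higher and 10.6% as lower in KO. At an unadjusted p under 0.05 there were 4 members (*Xpo5*, *Dicer1*, *Ago1* and *Tnrc6a*), beside 39.0% of all tested genes. The CPM of KO and WT did not overlap for 6 of 10 members, against 44.3% of all genes. In all 6 the KO values were the higher, as they were in 22.7% of all genes. The members' counts ranged from 373 to 5644 per library.

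**Figure D1:**
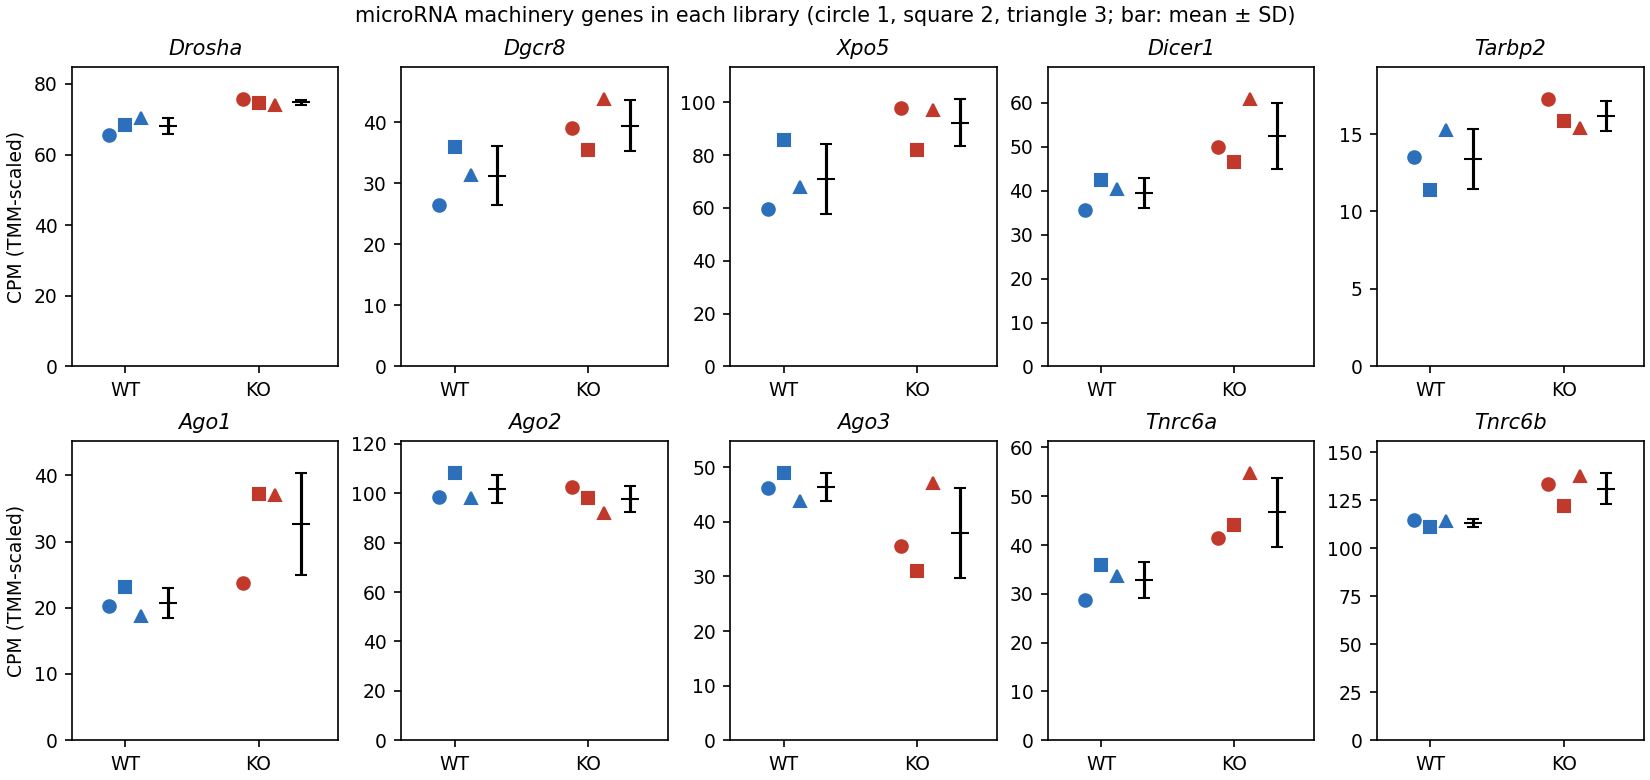
TMM-scaled CPM of the 10 machinery genes in each WT (blue) and KO (red) library, with the mean ± SD of the 3 libraries beside the points. All axes start at 0; the KO points stand clear of the WT points for *Drosha*, *Dicer1*, *Tarbp2*, *Ago1*, *Tnrc6a* and *Tnrc6b*, and the groups overlap for the other genes.

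The Microprocessor genes showed no difference past the threshold. *Drosha* (ENSMUSG00000022191), the RNase III that makes the first cut, lies on the forward strand of chromosome 15 at chr15:12824815-12935290 (GRCm38, as for all positions here). It was measured at 75.6, 74.5 and 74.1 CPM in KO1 to KO3 and 65.7, 68.5 and 70.2 CPM in WT1 to WT3. Every KO library was above every WT library, and the gap was narrow. The log2 fold change was 0.13 (standard error 0.10, adjusted p = 0.381, edgeR), or 1.10-fold, and an exact two-sided permutation test gave p = 0.1, the smallest that 3 against 3 libraries allow.

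*Dgcr8* (ENSMUSG00000022718, chr16:18253948-18289249, reverse strand) encodes the double-stranded RNA-binding partner that DROSHA needs to recognise hairpins. Its CPM were 39.1, 35.5 and 43.7 in KO and 26.5, 36.0 and 31.3 in WT. KO2 lay below WT2, so the groups overlapped, although the highest values were those of KO3 and KO1. KO exceeded WT by 0.33 on the log2 scale (standard error 0.16, adjusted p = 0.152, edgeR), and by 0.22 without WT1. *Dgcr8* overlaps *Trmt2a* on the opposite strand, and since the sources used here do not say whether the counting used strand, reads of the pair may not be separable. The ratio of *Drosha* to *Dgcr8* in TPM (transcript abundance relative to the library, corrected for transcript length) was 1.51 ± 0.105 in KO and 1.75 ± 0.228 in WT (SD, n = 3 each, exact permutation p = 0.3), and the groups overlapped. With CPM per kb of merged exons in its place the ratio was 2.48 in KO and 2.87 in WT, so its size depends on the measure, and the TPM difference (KO minus WT) of −0.243 became −0.135 without WT1.

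The genes of export and dicing were fitted higher in KO, none past the threshold. *Xpo5* (ENSMUSG00000067150, chr17:46202855-46242299, forward strand), the exportin of hairpin precursors, had 97.7, 81.9 and 97.1 CPM in KO and 59.4, 85.7 and 67.8 in WT. WT2 stood above KO2, and the other 2 WT libraries were the lowest of the 6. On the log2 scale KO exceeded WT by 0.38 (standard error 0.16, adjusted p = 0.126, edgeR), or 1.30-fold.

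*Dicer1* (ENSMUSG00000041415, chr12:104687742-104751952, reverse strand) encodes the RNase III that cuts precursors into duplexes. It was measured at 49.9, 46.6 and 60.8 CPM in KO and 35.7, 42.4 and 40.4 CPM in WT. All KO libraries were above all WT libraries, with KO3 highest. The log2 fold change was 0.41 (standard error 0.14, adjusted p = 0.0761, edgeR), or 1.33-fold.

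The difference of *Dicer1* was shared by its chromosome. Over the 483 tested genes of chromosome 12, the median log2 fold change stood 0.35 above that of all genes, and over the 60 tested genes between 100 and 110 Mb, where *Dicer1* lies, it stood 0.40 above. Each KO library showed it: the chromosome's median deviation from the WT mean was 0.39, 0.33 and 0.38 in KO1 to KO3 and between −0.01 and 0.02 in WT. With the chromosome's median removed in each library, the log2 fold change of *Dicer1* was 0.04 (standard error 0.14, adjusted p = 0.847, edgeR), and with the region's median removed it was 0.03 (adjusted p = 0.915, edgeR). The regional medians of the other 9 members lay between −0.02 and 0.07, and their fold changes kept their directions under both removals. Calls did change: *Ago1*, which did not pass as fitted, passed with chromosome (adjusted p = 0.0332, edgeR) and region medians removed (0.0363). *Tnrc6a*, which passed as fitted, did not pass with either removed (0.0565 and 0.0822, edgeR).

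**Figure D2:**
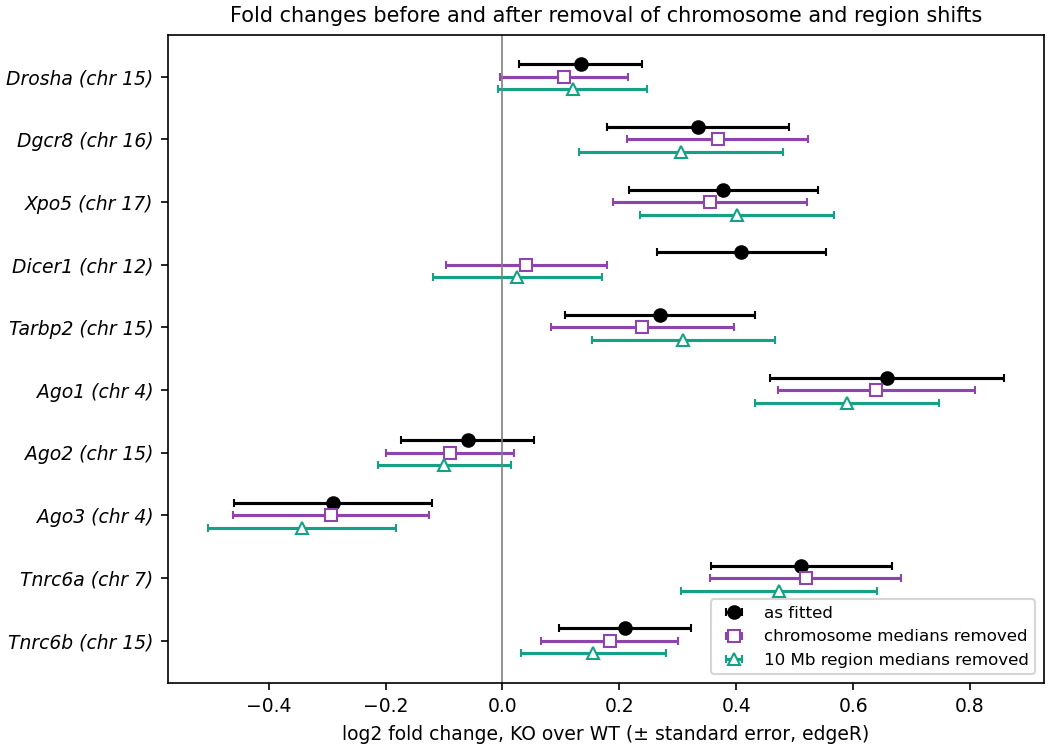
Log2 fold change of KO over WT with its standard error from edgeR for each machinery gene (3 libraries a group), as fitted (black circles), with the median shift of the gene's chromosome removed in each library (open squares) and with that of its 10 Mb region removed (open triangles). *Dicer1* moves from 0.41 to 0.04 and 0.03, whereas *Ago1* and *Tnrc6a* keep the largest values in all 3 fits.

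*Tarbp2* (ENSMUSG00000023051, chr15:102518192-102523676, forward strand), which encodes a double-stranded RNA-binding partner of DICER1, had the fewest reads of the members. Its CPM were 17.2, 15.9 and 15.4 in KO and 13.5, 11.4 and 15.3 in WT, so that the lowest KO library and WT3 nearly met. Its log2 fold change was 0.27 (standard error 0.16, adjusted p = 0.255, edgeR), and 0.16 without WT2.

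No Argonaute member passed the threshold, and their fitted changes were not tested against each other. *Ago1* (ENSMUSG00000041530, chr4:126435012-126468583, reverse strand) had the largest fitted difference of the members. Its CPM were 23.7, 37.2 and 37.0 in KO and 20.3, 23.1 and 18.7 in WT. KO2 and KO3 stood well above WT, and KO1 only just above WT2. The log2 fold change was 0.66 (standard error 0.20), or 1.58-fold, with an adjusted p of 0.0503 in edgeR, just outside the threshold. Of 14 alternative fits, 6 put *Ago1* past the threshold, including DESeq2, which called 23.9% of all genes it tested, and the fit without KO1, and the adjusted p ranged from 0.00526 to 0.174.

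*Ago2* (ENSMUSG00000036698, chr15:73095844-73184840, reverse strand), the Argonaute with slicing activity, was level: 102, 98.0 and 92.0 CPM in KO against 98.7, 108 and 98.0 in WT, with the groups overlapping. Its log2 fold change was −0.06 (standard error 0.11, adjusted p = 0.729, edgeR), and it turned to 0.05 when libraries were scaled by their totals alone. *Ago2* overlaps *Chrac1* on the opposite strand. *Ago3* (ENSMUSG00000028842, chr4:126331704-126429556, reverse strand) had 35.6, 31.1 and 47.0 CPM in KO and 46.3, 48.9 and 43.9 in WT. KO1 and KO2 were below every WT library and KO3 was within the WT range, and the log2 fold change was −0.29 (standard error 0.17, adjusted p = 0.240, edgeR). It was −0.16 without KO2 and −0.47 without KO3 (adjusted p = 0.0631, edgeR).

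*Ago4* (ENSMUSG00000042500, chr4:126489541-126533472), the remaining Argonaute paralog and not among the 10 genes, was scarce. It had 110, 294 and 273 counts in KO and 53, 47 and 70 in WT, equal to 3.08, 6.73 and 6.66 CPM against 1.53, 1.43 and 1.89 CPM. All KO libraries were above all WT libraries, and the log2 fold change was 1.76 (standard error 0.35, adjusted p = 0.0132, edgeR), or 3.39-fold. The call was lost in 1 of 14 alternatives, without WT1 (adjusted p = 0.0685, edgeR). *Ago3*, *Ago1* and *Ago4* lie side by side within 202 kb of chromosome 4, and the 107 tested genes of that 10 Mb region had a median log2 fold change 0.02 above that of all genes. The KO libraries differed in sign there: the region's median deviation from the WT mean was −0.123, 0.113 and 0.145 in KO1 to KO3. In WT it was between −0.027 and 0.010. With the region's median removed in each library, the log2 fold change of *Ago4* was 1.68 (adjusted p = 0.0116, edgeR).

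The make-up of Argonaute RNA was compared next. On the TPM scale, *Ago1* made up 25.1%, 35.2% and 33.5% of the summed TPM of *Ago1* to *Ago4* in KO, and 22.4%, 23.8% and 21.5% in WT. *Ago3* made up 13.5% to 20.8% in KO and 21.9% to 25.6% in WT. *Ago2* was the largest share in every library, at 45.4% ± 7.16 in KO and 52.2% ± 1.99 in WT (SD, n = 3 each), with overlapping values. *Ago4* made up 3.22% to 7.30% in KO and 1.31% to 2.46% in WT. The shares of *Ago1* and *Ago4* were higher and that of *Ago3* lower in every KO library than in any WT library, each with an exact permutation p of 0.1 (0.2 after Benjamini-Hochberg adjustment over 10 shares, sums and ratios), the smallest possible here. Shares of the same sum are not independent, since a rise in some lowers the others. The TPM of *Ago3* itself overlapped between the groups, with KO3 (2.84) above every WT library. The difference (KO minus WT) of the *Ago2* share, −6.80 percentage points, was −3.32 without KO3 and −10.5 without KO1, and that of the *Ago3* share, −5.68, was −3.56 without KO2. The summed TPM of the family was 10.9 ± 2.49 in KO and 9.74 ± 1.19 in WT (SD, n = 3 each, exact permutation p = 0.6).

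**Figure D3:**
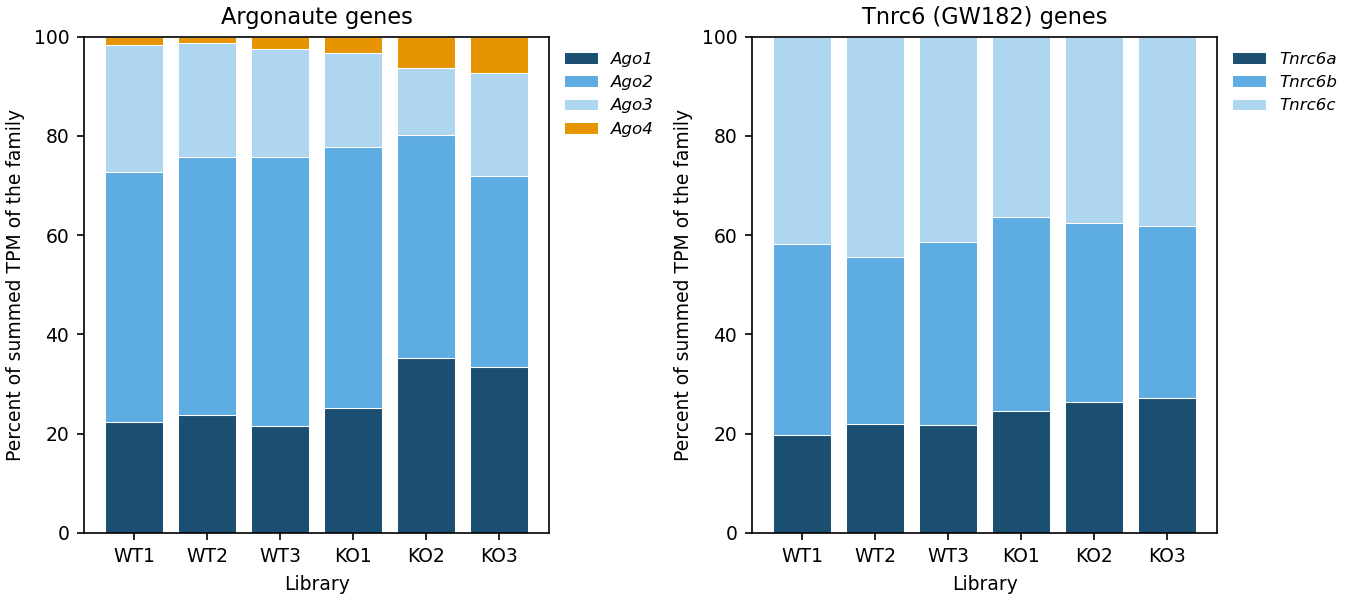
Percent of the summed TPM that each Argonaute gene (left) and each *Tnrc6* gene (right) took in each library, WT1 to WT3 then KO1 to KO3; each bar adds to 100. The *Ago1* segment is 21.5% to 23.8% in WT and 25.1% to 35.2% in KO, and the *Tnrc6a* segment 19.7% to 21.9% in WT and 24.6% to 27.2% in KO.

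*Tnrc6a* (ENSMUSG00000052707, chr7:123123885-123195288, forward strand), which encodes a GW182 scaffold that links Argonaute to the deadenylases, was the member past the threshold. It was measured at 41.4, 44.0 and 54.8 CPM in KO and 28.8, 35.9 and 33.7 CPM in WT. Every KO library was above every WT library, with KO3 the highest and WT1 the lowest. The log2 fold change was 0.51 (standard error 0.16), or 1.42-fold, with an adjusted p of 0.0495 in edgeR. This lies at the threshold: the direction was kept in all 14 alternatives, while the call was lost in 11, DESeq2 and 5 of 6 fits that leave out a library among them, with the adjusted p from 0.0274 (without KO1) to 0.190.

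*Tnrc6b* (ENSMUSG00000047888, chr15:80711319-80941086, forward strand), its paralog, had 133, 122 and 138 CPM in KO and 115, 111 and 114 in WT. The groups did not overlap, but the log2 fold change of 0.21 (standard error 0.11) did not pass the test (adjusted p = 0.206, edgeR). The third paralog, *Tnrc6c*, which is not among the 10 genes, had 51.8, 53.2 and 66.0 CPM in KO and 51.2, 57.8 and 52.9 in WT (log2 fold change 0.08, standard error 0.14, adjusted p = 0.701, edgeR). *Tnrc6a* made up 26.0% ± 1.33 of the summed *Tnrc6* TPM in KO and 21.1% ± 1.25 in WT, and *Tnrc6c* 37.4% ± 0.919 and 42.5% ± 1.63 (SD, n = 3 each). The groups did not overlap for either share (exact permutation p = 0.1 each, 0.2 adjusted), whereas the share of *Tnrc6b* was 36.6% in KO and 36.4% in WT with overlapping values.

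The TPM values gave the same directions for all 10 members. Fitted with limma on log2(TPM + 1), 8 of 10 members were above 0 and none passed an adjusted p of 0.05, where 20.5% of 11691 tested genes did. None had an unadjusted p under 0.05 in limma either, beside 36.1% of all genes, and the members' adjusted p lay between 0.140 and 0.817. The KO values were wholly above WT for 3 members (*Dicer1*, *Tarbp2* and *Tnrc6a*) and overlapped for the others, where 40.6% of all genes did not overlap. KO3 held the highest TPM of 9 of 10 members, against 4 of 10 in CPM. *Tnrc6a* had TPM of 2.96, 3.35 and 4.84 in KO and 2.35, 2.92 and 2.46 in WT, a difference of 0.38 on the log2(TPM + 1) scale (standard error 0.18, adjusted p = 0.165, limma). For *Ago1* the TPM were 2.20, 3.66 and 4.57 in KO and 2.22, 2.58 and 1.82 in WT, so that KO1 fell within the WT range (difference 0.45, standard error 0.22, adjusted p = 0.170, limma). The *Ago1* difference was 0.67 without KO1, where it passed (adjusted p = 0.0195, limma), and 0.28 without KO3. Without KO3 the TPM differences of *Drosha* (0.04), *Dgcr8* (0.17), *Xpo5* (0.22), *Dicer1* (0.15), *Tnrc6a* (0.22) and *Tnrc6b* (0.06) were all smaller by more than 1.5 times, and that of *Ago3* ranged from −0.37 (without KO3) to −0.03 (without KO2).

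TPM is per length, so the members' levels can be set in order on that scale, as a description of these TPM values. In WT, *Xpo5* had the highest mean TPM (12.8), followed by *Drosha* (11.02), *Tarbp2* (7.31), *Dgcr8* (6.38), *Ago2* (5.07) and *Tnrc6b* (4.43). *Dicer1* (2.67), *Tnrc6a* (2.58), *Ago3* (2.29) and *Ago1* (2.21) were lowest. Among neighbours in this order, the ranges of the 3 libraries were apart only between *Drosha* and *Tarbp2* and between *Tnrc6b* and *Dicer1*. In KO the order was *Xpo5* (16.5), *Drosha* (12.1), *Tarbp2* (9.48), *Dgcr8* (8.10), *Tnrc6b* (5.16), *Ago2* (4.84), *Tnrc6a* (3.72), *Dicer1* (3.59), *Ago1* (3.48) and *Ago3* (1.97). Neighbouring ranges were apart there between *Xpo5* and *Drosha*, *Drosha* and *Tarbp2*, and *Dgcr8* and *Tnrc6b*. The order depends on the measure: in CPM per kb of merged exons, *Drosha* (11.5) stood above *Xpo5* (10.3) in WT, and *Tarbp2* (2.94) below *Ago2* (7.24), *Tnrc6b* (4.78) and *Dgcr8* (4.06).

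For the nuclear and cytoplasmic RNases and for *Dgcr8*, the genes with the most similar profile were sought among 5465 genes whose log2 CPM averaged 5 or more, as Pearson's r of log2 CPM over the 6 libraries. They were *Tor1b* (0.998), *Tex261* (0.992) and *Tspan6* (0.989) for *Drosha*, and *Med12* (0.996), *Ppip5k2* (0.991) and *Wdfy3* (0.985) for *Dgcr8*. For *Dicer1* they were *Xist* (0.997), *Srrm2* (0.996) and *Prpf39* (0.995), of which *Prpf39* also lies on chromosome 12. With 6 libraries and this many genes, such values are a description of likeness alone.

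Among 40 cofactors of the pathway, 37 were tested. *Lin28a*, *Lin28b* and *Trim71*, regulators of let-7 and of stem cell state, had too few counts. A total of 9 rose in KO and none fell in edgeR (24.3% called, beside 22.7% of all genes called in either direction and 12.1% called higher), 28 did not pass, 19 had an unadjusted p under 0.05 (39.0% of all genes did), and the median log2 fold change was 0.11. The cofactors too were listed with earlier results known. Among the 10 cofactors acting at the primary transcript, 5 rose, beside 22.7% of all genes called and 12.1% called higher: *Srrt*, *Srsf3*, *Hnrnpa1*, *Ddx5* and *Erh*. The remaining calls were *Ago4*, *Cnot1*, *Xrn2* and *Zswim8*. In TPM (limma), 4 of the 9 passed: *Srrt* (adjusted p = 0.0154), *Xrn2* (0.0200), *Erh* (0.0201) and *Ddx5* (0.0484). *Hnrnpa1* (0.0507), *Zswim8* (0.0541), *Srsf3* (0.0577) and *Cnot1* (0.0820) did not pass in limma, and *Ago4* was below the TPM filter. In the other direction, *Limd1* passed in TPM as lower in KO (difference −0.66 on the log2(TPM + 1) scale, adjusted p = 0.0481, limma), without overlap. Its count test gave a log2 fold change of −0.69 and did not pass (adjusted p = 0.0720, edgeR).

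*Srrt*, which encodes ARS2, a link between the nuclear cap-binding complex and the Microprocessor, was measured at 79.5, 119 and 116 CPM in KO and 40.1, 49.4 and 56.2 in WT. All KO libraries were above all WT libraries, and the log2 fold change was 1.11 (standard error 0.20, adjusted p = 0.00883, edgeR). Its call held in all 14 alternatives. *Srsf3*, a splicing factor that also binds beside hairpins, had 148, 190 and 210 CPM in KO and 72.3, 121 and 102 in WT (log2 fold change 0.89, adjusted p = 0.0247, edgeR), and its call was lost in 4 of 14 alternatives of the count test, all with a library left out, and in TPM, where WT2 (37.2) stood above KO1 (35.9).

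*Ddx5*, the p68 RNA helicase of the Microprocessor, stood at 808, 916 and 1030 CPM in KO and 503, 632 and 582 in WT (log2 fold change 0.68, standard error 0.18, adjusted p = 0.0298, edgeR). The call was lost in 6 of 14 alternatives of the count test, 5 of them with a library left out. Its paralog *Ddx17* had a log2 fold change of 0.40 and did not pass. *Hnrnpa1*, an hnRNP protein that binds the hairpin of miR-18a, had 283, 469 and 438 CPM in KO and 229, 219 and 231 in WT (log2 fold change 0.81, adjusted p = 0.0268, edgeR), with KO1 the nearest to WT, and the call was lost in 5 of the 6 fits with a library left out. *Erh*, which encodes a DGCR8-binding protein, had 63.5, 71.8 and 55.5 CPM in KO and 40.8, 47.7 and 40.9 in WT (log2 fold change 0.56, adjusted p = 0.0266, edgeR). Like *Dicer1* it lies on chromosome 12, and with the chromosome's median removed its log2 fold change was 0.20 (adjusted p = 0.337, edgeR).

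Of the genes acting on finished microRNAs or on their targets, *Xrn2*, a nuclear exonuclease, rose from 149, 163 and 142 CPM in WT to 233, 270 and 248 in KO (log2 fold change 0.72, standard error 0.13, adjusted p = 0.00895, edgeR). *Zswim8*, the ubiquitin ligase adaptor of target-directed microRNA decay, had 98.3, 103 and 115 CPM in KO and 57.7, 80.3 and 61.0 in WT (log2 fold change 0.67, adjusted p = 0.0222, edgeR). *Cnot1*, the scaffold of the deadenylase complex that TNRC6 proteins recruit, had 353, 349 and 401 CPM in KO and 267, 272 and 244 in WT (log2 fold change 0.49, adjusted p = 0.0358, edgeR). Its 10 Mb region of chromosome 8 had a median 0.36 above that of all genes over 59 genes, and with that removed its log2 fold change was 0.24 (adjusted p = 0.190, edgeR). The call of *Cnot1* was lost in 8 of 14 alternatives of the count test, that of *Erh* in 5, that of *Zswim8* in 3 and that of *Xrn2* in 2. Leaving out WT1 left 1 of the 37 cofactors past the threshold and leaving out WT3 left 2, while leaving out KO1 gave 14.

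**Figure D4:**
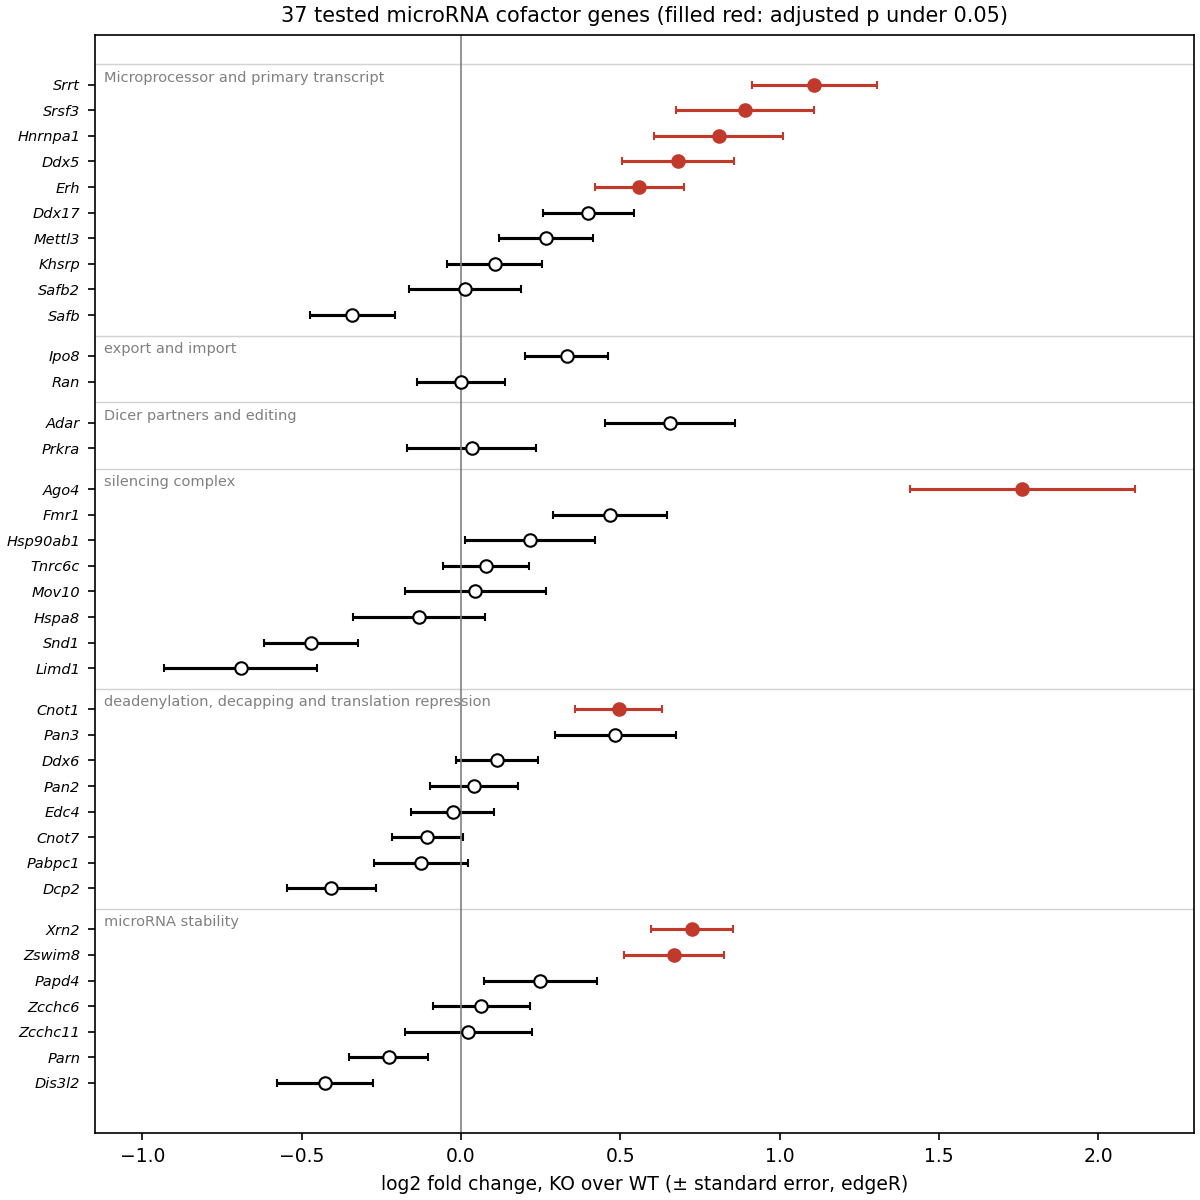
Log2 fold change of KO over WT with its standard error (edgeR, 3 libraries a group) for the 37 tested cofactors, grouped by their step in the pathway; filled red points passed an adjusted p of 0.05. The 9 filled points are all right of 0, and 5 of them are in the group acting at the primary transcript.

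Most rows of microRNA genes and host genes held no counts, but some host rows held many, such as *H19* with 90499 to 865708 per library. Of 1237 listed, 418 had a count in any library, 28 were tested and 2 passed the threshold (7.14%, beside 22.7% of all tested genes). The 2 were *H19* and *Mir335*, and the pass of *Mir335* carries no weight, for the reason given next. *Mir335* (chr6:30741299-30741396) had 32, 80 and 45 counts in KO and 6, 4 and 6 in WT, so it passed the filter on low counts only through its KO libraries, and a row that passes in this way had to differ. The values are given as a description of that row. Its log2 fold change was 3.04 (standard error 0.45, edgeR), or 8.21-fold. No p-value is given for it, since the row's entry into the test already depended on its high KO values. The hairpin whose mature arms are printed above lies in an intron of *Mest*, an imprinted gene (chr6:30723547-30748465), so reads of the hairpin, of its primary transcript and of unspliced *Mest* cannot be told apart.

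*Mest*, chosen after its values were seen, went the same way: 130, 256 and 126 CPM in KO and 52.5, 22.5 and 62.6 in WT (log2 fold change 1.90, standard error 0.42, adjusted p = 0.0181, edgeR). *Mest* overlaps *Copg2* on the opposite strand, which held 17478 counts over the 6 libraries, so reads of that pair may not be separable either. KO2 was the highest in both *Mest* and *Mir335*, and WT2 the lowest in both. The call of *Mest* was lost without WT1, with an adjusted p of 0.0702 in edgeR.

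*H19* (chr7:142575529-142578143, reverse strand), an imprinted non-coding RNA whose exons hold the miR-675 hairpin, fell in KO. Its CPM were 7312, 3997 and 2209 in KO and 25040, 15310 and 21100 in WT. Every KO library was far below every WT library, and the log2 fold change was −2.18 (standard error 0.48, adjusted p = 0.0181, edgeR). Leaving out WT1 or WT3 ended the call (highest adjusted p 0.0807, edgeR). The *Mir675* row itself held 0 counts in every library, and its hairpin overlaps an exon of *H19*.

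*Gm28653*, the non-coding transcript whose GENCODE M21 exons hold *Mir206* and *Mir133b*, did not pass the test. Its CPM were 209, 69.3 and 214 in KO and 139, 232 and 306 in WT, with overlapping groups and KO2 lowest. The TPM tables list it at 0 in every library and start it at 20679023, after the start of *Mir206* (20679010), so these counts have no second measure. Its log2 fold change was −0.46 (standard error 0.44, adjusted p = 0.471, edgeR), and it ranged from −0.73 to −0.09 over 14 alternatives. The row of *Mir206* had at most 5 counts in a library and that of *Mir133b* had 0, so the hairpin rows of the muscle pair, both overlapping exons of the host, gave no comparison of counts. The TPM of the *Mir133b* and *Mir675* rows were not used: the rows held 0 counts, and the hairpins overlap exons of their hosts.

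**Figure D5:**
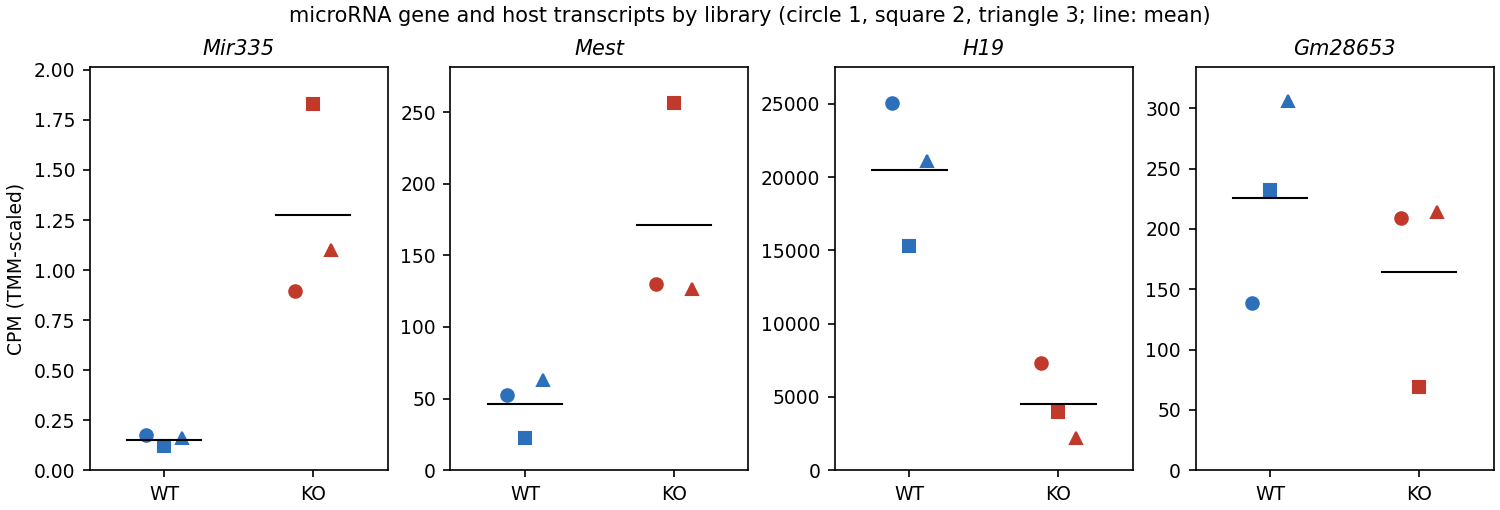
TMM-scaled CPM of the *Mir335* row and of the *Mest*, *H19* and *Gm28653* transcripts in each WT (blue) and KO (red) library, with the group mean as a line and each axis from 0. *Mir335* and *Mest* are higher in all 3 KO libraries, *H19* is lower in all 3, and *Gm28653* overlaps.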

How the data were processed

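The authors aligned the reads of 6 libraries with STAR and deposited raw counts per gene, with no normalization. They also deposited StringTie tables with coverage, FPKM and TPM values per library. The deposited TPM values entered the second test, and the deposited coverage (signal) and FPKM columns were not used. Each of the 6 count columns was used, leaving 0 unused. The methods name GRCm39, but 83.2% of 45223 genes have the start and end of GENCODE M21 on GRCm38, so GRCm38 positions are given. Whether counting used strand is not given in the sources used here.

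Counts were scaled with TMM, filtered with filterByExpr and tested in edgeR 4.0.16 (R 4.3.3) with the two-sided quasi-likelihood test on genotype, adjusted by Benjamini-Hochberg over all 14828 tested genes, threshold 0.05. CPM are TMM-scaled. TPM of genes at 1 or more in at least 3 libraries were tested with limma 3.58.1 on log2(TPM + 1). DESeq2 1.42.0 was an alternative tool, beside other scalings and filters, left-out libraries, and offsets that remove the median of each chromosome or 10 Mb region. With 3 libraries a group, exact permutation tests cannot go below 0.1. The steps were tested on simulated data. The named genes were the 10 members, *Hnrnpa2b1*, the paralogs *Ago4* and *Tnrc6c*, each cofactor or microRNA row past the threshold, and the 3 most similar profiles of *Drosha*, *Dgcr8* and *Dicer1*. *Gm28653* and *Mest* were added as host transcripts, and other list genes to say what a list holds. Members and lists were chosen with earlier results of these data known. No library repeated another (chi-square per degree of freedom between libraries of a genotype at least 52.5).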

Additional observations from a re-analysis of the deposited data

How the results depend on the processing

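Of the 140 fitted values of the 10 members under 14 alternatives, 121 kept their direction and side of the threshold, 11 lost a call (all *Tnrc6a*), 7 gained one (*Ago1* 6, *Dicer1* 1) and 1 turned (*Ago2*, 0.055 with library totals). The count of members called was 0 with RLE size factors, 0 with the replicate block, 3 with library totals alone and 0 to 2 with a library left out. Library totals moved the median of all genes by 0.12 and that of the members to 0.42, and with chromosome medians removed the members' median was 0.21. The replicate numbers did not pair the libraries (correlation of deviations 0.14, −0.12 and 0.0041), and the block left 8 cofactors and 2520 genes called. With a library left out, 933 to 4712 genes were called from counts, 484 to 3156 from TPM (1075 with no filter on TPM), 1 to 14 cofactors, 1 to 4 microRNA and host rows (5 with no filter on low counts) and 0 to 1 member from TPM (*Ago1*, without KO1). The *Tnrc6b* share turned to −0.732 percentage points (KO minus WT) with CPM per kb in place of TPM, and ranged from −1.10 to 1.34 with a library left out (−0.983 without KO1). *Ago2* in TPM lay between −0.11 and 0.013 with a library left out, turning without WT2, and *Tnrc6c* in counts between −0.037 (without KO3) and 0.14. The cause of these changes was not tested. Depth differed widely: the members held at least 373 counts in every library, whereas *Mir335* held 4 to 6 in WT.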
